A study of Mus musculus with 7 samples.

Results

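Genes of the annexin and S100 families, 10 in all, were followed in retinal microglia (rMG) of Irf8 KO mice with and without laser injury. The members were 4 annexin genes (Anxa1, Anxa2, Anxa4 and Anxa5) and 6 S100 genes (S100a4, S100a6, S100a8, S100a9, S100a10 and S100a11), found by their symbols among 40743 listed genes. All 10 members were listed, and 9 of them reached the level needed for the test between groups. Laser photocoagulation separated the groups: 3 libraries came from mice without it and 4 from mice sampled on day 7 after it, in the model of choroidal neovascularisation (CNV) in which a focal burn lets choroidal vessels grow towards the retina. Mice of both groups are described as Irf8-/- Cx3cr1GFP/+ on a C57BL/6J background. By this label, every library shared a germline loss of the interferon regulatory factor IRF8 and 1 GFP-carrying Cx3cr1 allele. The reads of Irf8 itself are given below. Each library came from about 10000 cells pooled from 3 to 4 mice and sorted as CD45low CD11b+ Cx3cr1-GFP+ Ly6C- Ly6G- cells. Lasered eyes had received 3 to 6 spots, and only the central 70% of their retinae were used, so laser injury and retinal region cannot be told apart. The study describes the mice sequenced without laser as adult, and an exact age is not given for these libraries in the sources used here. Its other libraries are not analysed here.

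Annexins are cytosolic proteins that bind negatively charged phospholipids when calcium rises, and they act at membranes in vesicle fusion, membrane repair and the binding of cell-surface partners. S100 proteins are small calcium sensors with EF-hand domains that usually work as dimers, and several of them dock onto annexins. The best known pair is Anxa2 with S100a10, which presents plasminogen and its activators at the cell surface. S100a8 and S100a9 form calprotectin, a major cytosolic protein of neutrophils and many monocytes, while S100a4 and S100a6 are higher in blood-derived myeloid cells than in resting microglia.

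Read depth and cell type markers were checked first. The unlasered group had 20427558 to 36022954 reads a library and the lasered group 37133297 to 45919042. All levels are CPM, read counts scaled to the total of their library, with no division by gene length unless stated. The microglia list of 10 markers summed to between 23581 and 28071 CPM in unlasered and between 21470 and 28598 CPM in lasered libraries, with 0 of its 10 genes past the test, and Sall1 from that list stayed between 0 and 1.36 CPM. Irf8 itself was read at 530, 489 and 507 CPM in the unlasered and at 463, 465, 475 and 582 CPM in the lasered libraries, and its reads were listed only jointly with Gm20388, an overlapping gene, so the libraries are named by their label, Irf8 KO. Some libraries stood apart. Lasered libraries 1 and 2 had 1014 and 1677 CPM on a list of 10 dendritic cell genes, against 168 and 66.2 CPM in lasered libraries 3 and 4 and between 34.7 and 128 CPM in unlasered libraries. Unlasered library 2 had 20191 CPM on 15 rod photoreceptor genes, against 2251 and 5780 CPM in the other two unlasered libraries and between 321 and 1020 CPM after laser. In bulk libraries such as these, fewer cells of a type and less RNA per cell cannot be told apart.

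The stretches upstream of 5 members are printed here because their levels carry most of the account that follows: Anxa2 and Anxa4 were the members whose groups did not overlap, S100a4 and S100a6 were among the 3 members that varied most between libraries and had similar profiles, and S100a11 was the S100 member whose window held the AP-1 letters. Sequences are from RefSeq (GRCm38.p6), written 5′ to 3′ on the strand of the gene. Each ends at the base before the transcription start, or before the start of the gene in GENCODE M21 where that lies further upstream. Capitals mark matches to the motifs searched.
Anxa2, chr9:69453433-69453619, plus strand: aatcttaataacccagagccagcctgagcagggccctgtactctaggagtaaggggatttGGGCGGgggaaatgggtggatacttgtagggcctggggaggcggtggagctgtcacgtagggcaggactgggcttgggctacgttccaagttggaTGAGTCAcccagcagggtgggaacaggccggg
Anxa4, chr6:86793585-86793834, minus strand: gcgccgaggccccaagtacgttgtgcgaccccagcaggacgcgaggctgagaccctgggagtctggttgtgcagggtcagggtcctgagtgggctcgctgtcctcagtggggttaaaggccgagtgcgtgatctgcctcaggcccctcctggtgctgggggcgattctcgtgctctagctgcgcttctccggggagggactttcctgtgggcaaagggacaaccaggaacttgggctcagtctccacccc
S100a4, chr3:90603520-90603769, plus strand: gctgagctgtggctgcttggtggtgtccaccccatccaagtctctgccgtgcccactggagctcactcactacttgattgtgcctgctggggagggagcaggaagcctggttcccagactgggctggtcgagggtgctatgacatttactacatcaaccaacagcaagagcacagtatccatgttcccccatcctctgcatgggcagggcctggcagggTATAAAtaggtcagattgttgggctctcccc
S100a6, chr3:90612644-90612881, plus strand: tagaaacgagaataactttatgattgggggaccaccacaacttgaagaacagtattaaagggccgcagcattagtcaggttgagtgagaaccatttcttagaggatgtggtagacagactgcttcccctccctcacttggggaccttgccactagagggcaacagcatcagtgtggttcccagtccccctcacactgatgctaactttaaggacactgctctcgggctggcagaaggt
S100a11, chr3:93520246-93520487, plus strand: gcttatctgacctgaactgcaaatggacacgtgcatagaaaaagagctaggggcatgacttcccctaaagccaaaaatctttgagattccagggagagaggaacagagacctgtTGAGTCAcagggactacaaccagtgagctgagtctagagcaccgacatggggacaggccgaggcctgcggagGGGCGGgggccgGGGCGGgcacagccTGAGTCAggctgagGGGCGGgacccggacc
Windows of 250 bases before the RefSeq start were found for 9 of the 10 members. Anxa4 had 2 listed starts, and only the window printed above is described for it. The AP-1 letters TGANTCA, which read alike on both strands, occurred in 2 of these 9 windows, once for Anxa2 (from base 95 before the start) and at 2 places for S100a11 (from bases 136 and 38), against 6.75% of 32851 windows of the same length. The TATA letters TATAAA, searched on the strand of the gene, occurred in 4 of 9 windows (Anxa1, Anxa2, S100a4 and S100a8), against 7.59% of windows. In S100a4 they lay from base 31 to base 26 before the start and in S100a8 from base 30 to base 25. The GC box letters GGGCGG on either strand occurred in 3 of 9 windows, with 3 copies each for Anxa2 and S100a11 and 1 for S100a9, against 32.7%. The composite site of PU.1 and IRF factors was searched on both strands as GGAA and GAAA with any 2 bases between them, and the interferon response element as GAAA and GAAA spaced alike; matches to these can overlap. Neither was found in the 9 windows, and they occurred in 2.3% and 2.98% of windows. For Anxa2 the TATA letters (from base 17 to base 12) and 2 of the GC boxes lay in the last 63 bases of the window, inside the GENCODE gene, which are not printed. These are matches of letters in a short window, and binding was not measured.

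Among the annexins, Anxa2 and Anxa4 were higher in all 4 lasered libraries than in all 3 unlasered libraries, and the difference of Anxa4 passed the test. Anxa4 (ENSMUSG00000029994, chromosome 6 of GRCm38, 86736840 to 86793584) encodes an annexin of epithelia and other cells that assembles on membranes in the presence of calcium. Its level was 81.3, 65.0 and 69.5 CPM in unlasered libraries 1, 2 and 3, and 117, 108, 104 and 93.6 CPM in lasered libraries 1, 2, 3 and 4. The lowest lasered library was thus above the highest unlasered library. Group means were 71.9 ± 8.42 CPM (SD, n = 3) and 105 ± 9.53 CPM (SD, n = 4), a difference of 0.55 on the log2(CPM + 1) scale (SE 0.13, limma, adjusted p = 0.0445). Of the 9 members tested, Anxa4 also had the lowest SD within groups. The call was close to the threshold: it was kept without unlasered library 1 (adjusted p = 0.0496), and lost without unlasered library 2 (0.125) or 3 (0.0605) and without lasered library 1 (0.135), 2 (0.121), 3 (0.1004) or 4 (0.0566), limma in each case.

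Anxa2 (ENSMUSG00000032231, chromosome 9, 69453620 to 69491795) encodes the annexin that pairs with S100a10 and bundles membrane-associated actin. Its level was 88.2, 61.9 and 96.1 CPM in the unlasered libraries and 153, 185, 121 and 105 CPM in the lasered libraries. The groups did not overlap, and lasered libraries 1 and 2 were the highest. The means of 82.1 ± 17.9 CPM (SD, n = 3) and 141 ± 35.3 CPM (SD, n = 4) differed by 0.77 on the log2(CPM + 1) scale (SE 0.22), with an adjusted p of 0.0749 by limma. On this scale it was the highest positive difference among the 9 members tested. As a ratio of mean CPM, lasered to unlasered, S100a10 was higher at 1.92, against 1.72 for Anxa2. Anxa2 passed the threshold with median-of-ratios scaling (limma, adjusted p = 0.0334) and with DESeq2 on the recovered reads (adjusted p = 0.0079). That scaling also moved the median log2 difference over all tested genes, from -0.014 to 0.059.

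Anxa5 (ENSMUSG00000027712, chromosome 3, 36448923 to 36475894), the annexin best known for binding phosphatidylserine on dying cells, was the member with the highest level. It was measured at 214, 190.4 and 176 CPM in unlasered and 246, 314, 286 and 199.8 CPM in lasered libraries. Lasered library 4 fell inside the unlasered range and the other lasered libraries lay above it. The log2 difference was 0.42 (SE 0.17, limma, adjusted p = 0.171). Anxa1 (ENSMUSG00000024659, chromosome 19, 20373428 to 20390944) encodes a glucocorticoid-regulated annexin that limits inflammation through formyl peptide receptors. Its values were 48.9, 21.5 and 37.1 CPM against 42.6, 66.2, 41.4 and 25.6 CPM, so the groups overlapped over most of their range. The log2 difference of 0.29 was smaller than its standard error of 0.34 (limma, adjusted p = 0.674).

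Of the S100 members, 5 were tested and none passed, and in each of them the SD among the lasered libraries was larger than the distance between group means in CPM. S100a4 (ENSMUSG00000001020, chromosome 3, 90603771 to 90606045) encodes a regulator of non-muscle myosin that is found in motile cells and many leukocytes. Its level was 21.6, 9.58 and 26.9 CPM in unlasered libraries and 20.2, 40.0, 6.93 and 2.21 CPM in lasered libraries 1, 2, 3 and 4, and a part of its reads was listed jointly with Gm42674. Lasered library 2 was the highest of the 7 libraries and lasered library 4 the lowest, 18.1 times apart. The log2 difference between groups was -0.63 with a standard error of 0.76 (limma, adjusted p = 0.686).

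S100a6 (ENSMUSG00000001025, chromosome 3, 90612882 to 90624181), or calcyclin, is a cell cycle-associated S100 gene that lies next but one to S100a4. It was measured at 14.2, 4.85 and 19.4 CPM and, after laser, at 17.9, 34.8, 4.16 and 1.83 CPM. The order of the libraries was nearly that of S100a4, with lasered library 2 at 19.0 times the level of lasered library 4. Its log2 difference was -0.29 (SE 0.82, limma, adjusted p = 0.871).

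S100a10 (ENSMUSG00000041959, chromosome 3, 93555080 to 93564643), the partner of Anxa2, was measured at 5.83, 7.21 and 9.49 CPM in unlasered and at 16.8, 29.98, 5.73 and 5.12 CPM in lasered libraries. Lasered libraries 1 and 2 lay above the unlasered range, and lasered libraries 3 and 4 lay below it. The means were 7.51 ± 1.85 CPM (SD, n = 3) and 14.4 ± 11.7 CPM (SD, n = 4), with a log2 difference of 0.55 (SE 0.53, limma, adjusted p = 0.592). Leaving out 1 library gave 0.11 to 0.89 for S100a10, with 0.11 without lasered library 2, and edgeR and DESeq2 gave 0.93 and 0.94. S100a11 (ENSMUSG00000027907, chromosome 3, 93520488 to 93526287), which binds Anxa1 and takes part in membrane repair, had the same arrangement. Its values were 18.1, 12.4 and 16.4 CPM and, after laser, 20.8, 42.5, 7.77 and 8.89 CPM. Here too lasered libraries 1 and 2 were above and 3 and 4 below the unlasered range, and the log2 difference was 0.05 (SE 0.50, limma, adjusted p = 0.969). Set side by side, Anxa2 was higher in all 4 lasered libraries than in any unlasered library, whereas S100a10 was so in lasered libraries 1 and 2.

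The calprotectin genes were near the limit of the depth in several libraries. S100a8 (ENSMUSG00000056054, chromosome 3, 90668978 to 90670035) had 147, 3 and 32 reads in unlasered libraries, or 7.20, 0.0876 and 0.888 CPM. After laser it had 77, 308, 13 and 10 reads, or 1.74, 6.86, 0.283 and 0.269 CPM. Unlasered library 1 and lasered library 2 were the high libraries, and the groups overlapped fully (log2 difference -0.07, SE 0.78, limma, adjusted p = 0.968). S100a9 (ENSMUSG00000056071, chromosome 3, 90692632 to 90695721) had 71, 6 and 0 reads in unlasered and 18, 53, 0 and 0 reads in lasered libraries, and was not tested because too few libraries reached 1 CPM. It was highest in the libraries in which S100a8 was highest, at 3.48 CPM in unlasered library 1 and 1.18 CPM in lasered library 2. No S100a9 read was found in unlasered library 3 or in lasered libraries 3 and 4, which allows up to 0.0833, 0.0653 and 0.0808 CPM at the limit of 3 reads, for counting error only.

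Markers of neutrophils, the cells richest in calprotectin, were read beside these values. The sum of 12 neutrophil genes ranged from 305 to 472 CPM in unlasered and from 376 to 442 CPM in lasered libraries, but Csf3r, a receptor gene that microglia also express, made up 96.5% of it. Without Csf3r the sums were 10.1, 3.97 and 6.02 CPM against 23.9, 22.9, 22.5 and 7.30 CPM. Of the 12 genes, Cxcr2, Mmp8 and Lcn2 were higher after laser (limma, adjusted p = 0.0305, 0.0337 and 0.0320). The defining granulocyte genes Ly6g, Mpo, Elane and Retnlg stayed between 0 and 0.327 CPM, with Ly6g at 0 in 5 of 7 libraries. Cells with surface Ly6G had been gated out in the sort. Unlasered library 1, with the highest S100a8 and S100a9 levels, had the highest sum without Csf3r of the unlasered libraries and their only Ly6g reads, 3 in all, but lasered libraries 1, 2 and 3 had higher sums. The part of neutrophil RNA in the calprotectin levels was not tested.

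**Figure D1:**
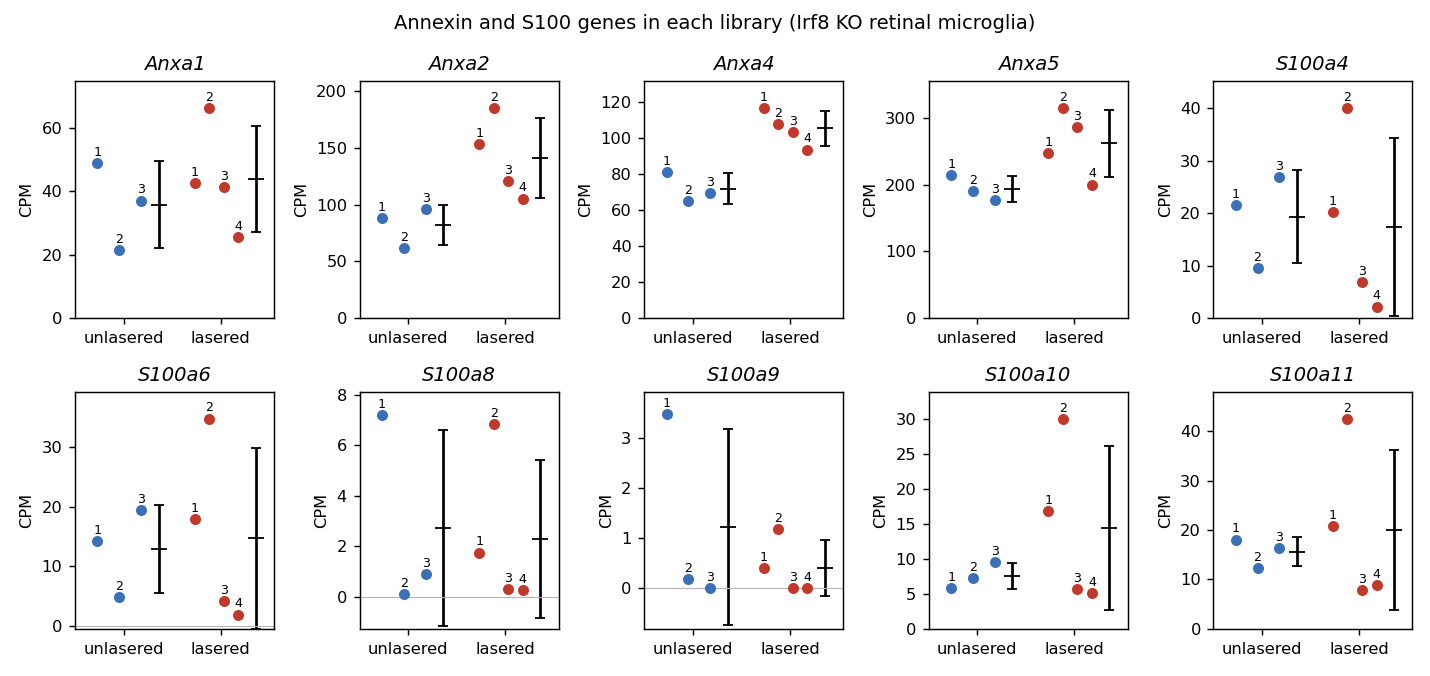
Level of each of the 10 members in CPM (linear axis) in the 3 unlasered (blue) and 4 lasered (red) libraries labelled Irf8 KO, numbered by library; the black bar is the group mean with its SD. Anxa2 and Anxa4 separate the groups, while S100a4, S100a6, S100a10 and S100a11 spread from high values in lasered library 2 to low values in lasered libraries 3 and 4.

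Counted over the family, 1 of the 9 members tested rose after laser (Anxa4) and 0 fell by limma at an adjusted p under 0.05, beside 6.93% of all 17496 genes tested, of which 3.86% were higher and 3.07% lower. At an unadjusted p under 0.05, limma gave Anxa2, Anxa4 and Anxa5 as higher and no member as lower. Over all 17496 genes tested, 3963 were under this threshold in either direction. edgeR and voom on the recovered reads called the same gene, Anxa4, and DESeq2 called Anxa2 and Anxa4. None of these tools called a member lower. Over all genes limma called 676 higher and 537 lower, and DESeq2 called more in each direction, as counted below. The members called by DESeq2 are therefore not to be set against the limma share. The count over all genes for voom is not given here. The groups did not overlap for 2 of 9 members, both higher after laser, where this held for 21% of all tested genes, 10.4% wholly higher and 10.7% wholly lower. The median log2 difference was 0.48 over the 4 annexins and -0.07 over the 5 S100 genes tested, beside -0.01 over all genes. With 9 genes these shares and medians are a description of the family and no test of it.

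**Figure D2:**
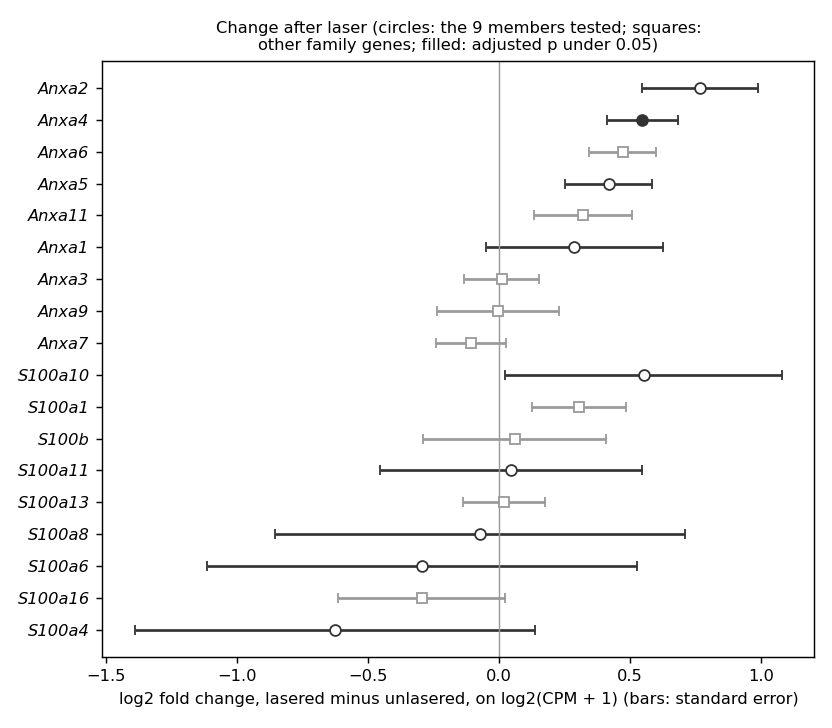
Difference in log2(CPM + 1) between lasered and unlasered libraries for the 9 members tested (circles) and the other annexin and S100 genes tested (squares), annexins above and S100 genes below; bars are standard errors and filled symbols have an adjusted p under 0.05 by limma. Anxa4 is the filled symbol, at 0.55, and the standard errors of S100a4, S100a6 and S100a8 are 0.76 to 0.82.

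Libraries of a group spread more widely in the S100 members tested than in the annexin members. The SD within groups was 1.43 for S100a6, 1.35 for S100a8, 1.33 for S100a4, 0.90 for S100a10 and 0.85 for S100a11 on the log2(CPM + 1) scale. Among the 8341 tested genes with a mean of 5 to 50 CPM, whose median SD was 0.27, 99.7% had a smaller SD than S100a6, 99.5% than S100a4, 97.3% than S100a10 and 96.9% than S100a11. Anxa1, in the same range, had an SD of 0.56, with 91.1% of genes below it. For the 4096 genes above 50 CPM the median SD was 0.21. In that range Anxa2 had an SD of 0.35 (84.6% of genes smaller), Anxa5 of 0.24 (61.7%) and Anxa4 of 0.14, below the median.

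**Figure D3:**
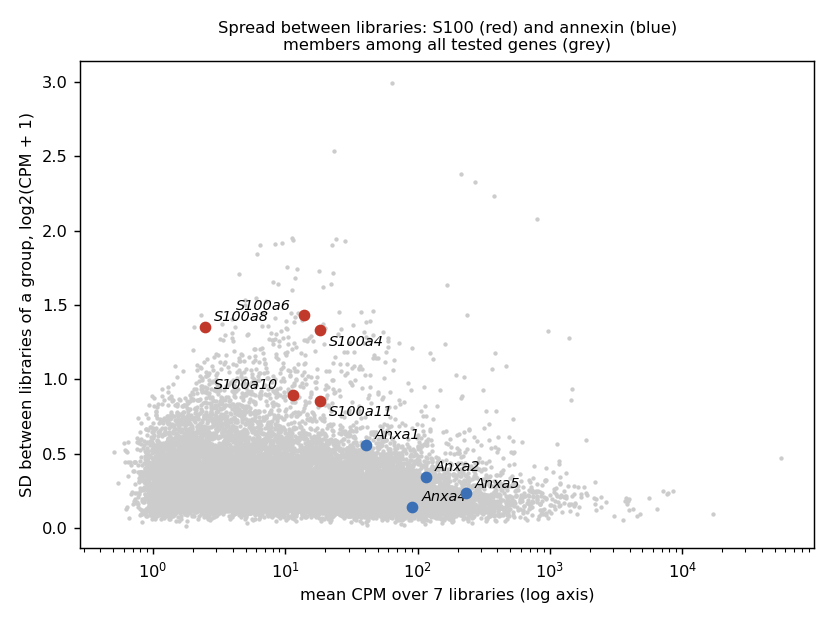
Standard deviation between libraries of a group on the log2(CPM + 1) scale against the mean level in CPM (log axis) for all tested genes (grey), with S100 members in red and annexin members in blue. S100a4, S100a6 and S100a8 lie in the upper part of the cloud at SDs of 1.33 to 1.43, and Anxa4 lies within it at 0.14.

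The spread fell on the same libraries in most members. After seeing the values, the order of the lasered libraries was counted: 6 of the 9 members tested (Anxa1, Anxa2, S100a4, S100a6, S100a8 and S100a10) went from library 2 through 1 and 3 to library 4, from high to low, an order found in 8.81% of all tested genes. Lasered library 2 was the highest of the 7 libraries for 7 of 9 members and for 13.9% of tested genes. Lasered library 4 was the lowest for 3 of 9 members and for 16.8% of tested genes. The distance between lasered libraries 2 and 4 was wide in the S100 members and narrow in most annexin members. It was a ratio of 25.5 for S100a8, 5.86 for S100a10 and 4.78 for S100a11, against 2.58 for Anxa1, 1.75 for Anxa2, 1.57 for Anxa5 and 1.15 for Anxa4. Among the other S100 genes tested the ratio was 1.33 for S100a1, 1.11 for S100a13, 0.913 for S100a16 and 5.03 for S100b, so a wide distance did not hold across the family.

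Several genes of other myeloid cells were high in the same lasered libraries. The 10 dendritic cell genes together gave 71.2, 34.7 and 128 CPM in unlasered and 1014, 1677, 168 and 66.2 CPM in lasered libraries (two-sided exact permutation test, p = 0.171, where 0.057 is the smallest p that 3 against 4 libraries allow). H2-Ab1, an MHC class II gene, made up 82.9% of this sum, with 858, 1497, 114 and 28.6 CPM after laser. Without H2-Ab1 the sums were 38.3, 25.2 and 48.5 CPM against 156, 179.8, 54.6 and 37.6 CPM. Flt3, a growth factor receptor that defines dendritic cells, had 3.28, 0.642 and 2.66 CPM against 15.5, 27.5, 1.74 and 3.42 CPM. Ccr7, a receptor of migrating dendritic cells, had 4.16, 0.263 and 0.0278 CPM against 74.8, 68.5, 5.34 and 3.10 CPM. Of the 10 genes 1, Ccl22, was higher after laser (limma, adjusted p = 0.0132). Clec9a did not exceed 0.245 CPM, with 3, 1 and 5 reads in unlasered and 1, 11, 0 and 0 reads in lasered libraries. Other genes of the list followed in part or not at all. Zbtb46, a transcription factor of dendritic cells, had 21.4, 14.9 and 36.6 CPM in unlasered and 26.3, 25.5, 23.5 and 23.5 CPM in lasered libraries. Xcr1, a receptor of cross-presenting dendritic cells, had 1.76, 2.48 and 1.28 CPM against 1.54, 1.40, 0.675 and 0.781 CPM, so lasered libraries 1 and 2 were again above 3 and 4 but not above the unlasered range. Itgae, an integrin gene, was highest in lasered library 3 at 11.2 CPM.

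The monocyte list of 10 genes, without Fn1 which made up 80.3% of it, summed to 82.9, 28.6 and 90.4 CPM in unlasered and 159.9, 209, 38.4 and 13.3 CPM in lasered libraries. This is the order of S100a4 and S100a6 among the lasered libraries, with library 2 at the top and library 4 at the bottom. Ccr2, the chemokine receptor of inflammatory monocytes, had 5.63, 6.37 and 14.2 CPM against 81.5, 128, 19.7 and 7.57 CPM, whereas Ly6c2, whose product was gated out, stayed between 0.0436 and 0.891 CPM. With Fn1 the sum ranged from 94.2 to 378 CPM in unlasered and from 261 to 936 CPM in lasered libraries, with an exact permutation p of 0.114, and Fn1 was the 1 gene of the list past the test (limma, adjusted p = 0.0485). Without both Fn1 and Ccr2, the other 8 genes summed to 77.2, 22.3 and 76.3 CPM in unlasered and 78.5, 81.0, 18.6 and 5.74 CPM in lasered libraries, so lasered libraries 1 and 2 then lay close to unlasered libraries 1 and 3. Plac8, which makes up much of this remainder, had 47.0, 9.78 and 45.6 CPM against 27.3, 39.6, 10.6 and 3.58 CPM. The part of dendritic cell and monocyte RNA in the S100 and annexin levels was not tested.

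Immediate early genes, which respond to cell dissociation and other stimuli, were also read by library. The 9 genes of this list summed to 572, 557 and 600.1 CPM in unlasered and 541, 732, 410.5 and 632 CPM in lasered libraries (exact permutation p = 0.971). Lasered library 2 was the highest here too, but library 4 came second and library 3 was the lowest. Fos ranged from 5.19 to 20.8 CPM without laser and had 22.6, 41.9, 8.65 and 13.5 CPM after it. Egr1 had 7.49, 11.8 and 20.8 CPM against 19.7, 48.3, 14.1 and 15.5 CPM, and Fosb had at most 0.409 CPM without laser and 1.99, 2.72, 0.305 and 0.539 CPM after it. In these 3 genes lasered library 2 was the highest of the 7 libraries and library 1 the second highest after laser. Jun and Junb, of the same list, went otherwise. Jun ranged from 175 to 262 CPM after laser, with library 2 highest and library 4 second, and Junb had 137, 156, 107 and 173 CPM, with library 4 the highest of the 7 libraries. Nr4a1, an orphan nuclear receptor gene, was the 1 gene of the list past the test and was lower after laser (limma, adjusted p = 0.0231), and no gene of the list was called higher. The part of this response in the levels of the members was not tested.

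**Figure D4:**
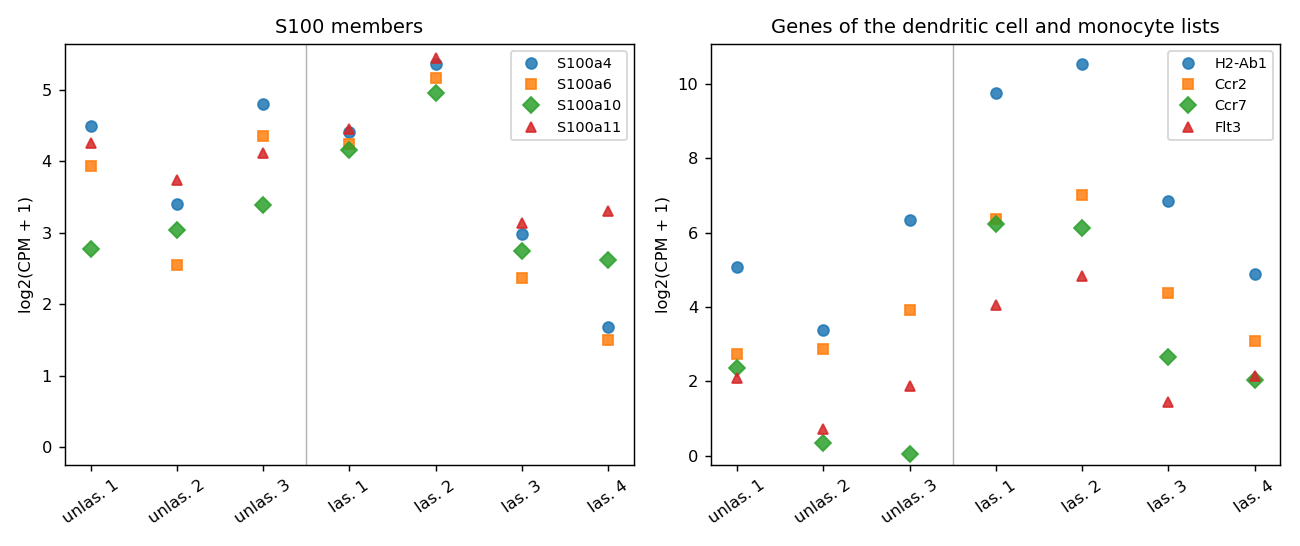
Level per library, as log2(CPM + 1), of 4 S100 members (left) and of 4 genes from the dendritic cell and monocyte lists (right), with unlasered libraries left and lasered libraries right of the line in each panel. The 4 genes on the right were chosen after their values were seen, and other genes of these lists, such as Zbtb46, Itgae and Fn1, do not show this pattern. In both panels lasered libraries 1 and 2 are the highest or nearly the highest after laser and libraries 3 and 4 lie far below. Among unlasered libraries S100a4 stays at 9.58 to 26.9 CPM while Ccr7 does not exceed 4.16 CPM.

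Each member was also compared without lasered libraries 1 and 2, an alternative chosen after seeing the data. Lasered libraries 3 and 4 had already been seen to be the lowest after laser for all members tested but Anxa5, so the values are a description and no test. Anxa2 and Anxa4 kept groups that did not overlap, with log2 differences of 0.48 and 0.45, and Anxa4 was no longer called (limma, adjusted p = 0.349). Anxa5 had a difference of 0.31 and Anxa1 went from 0.29 to -0.06. The differences of the S100 genes were all negative. S100a4 was at -1.90 and S100a6 at -1.68, S100a11 at -0.82 and S100a10 at -0.39. In this comparison S100a4, S100a6, S100a10 and S100a11 were lower in both remaining lasered libraries than in any unlasered library, 4 of 9 members, beside 17.6% of all tested genes that lay wholly lower and 13.5% wholly higher. This restates the order of the libraries given above, and nothing is read from these shares. S100a8 no longer reached the level needed for the test.

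The rod signal differed among the unlasered libraries. The 15 rod genes together gave 2251, 20191 and 5780 CPM without laser and 1020, 449, 821 and 321 CPM after laser, with 14 of 15 genes lower by limma and an exact permutation p of 0.057. In unlasered library 2, the one with the most rod reads, Anxa1, Anxa2, Anxa4, S100a4, S100a6, S100a8 and S100a11 were at their lowest among the unlasered libraries. The share of all tested genes for which this held was not counted, so nothing is read from it. Without that library the differences of Anxa2 and Anxa4 were 0.58 and 0.48 (limma, adjusted p = 0.204 and 0.125), and Anxa1 was at -0.03. The summed level of 10 Müller glia and astrocyte genes, of which Slc1a3 made up 40.0%, was 679 to 950 CPM in unlasered and 289 to 604 CPM in lasered libraries (exact permutation p = 0.057). By limma, Dkk3 was lower (adjusted p = 0.0138) and Gfap higher (adjusted p = 0.0311). The part of photoreceptor and glial RNA in the levels of the members was not tested.

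Genes of border macrophages, the macrophages of vessels and tissue borders, were read as a further list. The 8 genes summed to 1579 to 2197 CPM in unlasered and 1112 to 1627 CPM in lasered libraries (exact permutation p = 0.114), and Stab1 made up 34.8% of this. Without Stab1 the sums were 1275, 1204 and 1307 CPM against 815, 653, 844 and 978 CPM, and the groups did not overlap. Pf4, a platelet and macrophage chemokine gene, was the 1 gene called, lower after laser (limma, adjusted p = 0.0285), and Mrc1, the mannose receptor gene, lay wholly lower without passing (adjusted p = 0.131). Cbr2 went the other way, with 8.66, 5.14 and 2.83 CPM against 14.2, 8.40, 12.6 and 12.4 CPM (log2 difference 1.06, SE 0.31, limma, adjusted p = 0.0799). Folr2, F13a1, Stab1 and Cd163 differed by 0.34, 0.13, 0.10 and -0.02. The defining gene Lyve1 stayed between 0 and 1.11 CPM. The part of border macrophage RNA in the levels of the members was not tested. The lists for retinal pigment epithelium, endothelial cells, pericytes and fibroblasts, and T, B and NK cells summed to at most 63.4 CPM in any library.

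Levels of different genes were compared per kilobase of merged exons, as CPM per kb. In unlasered libraries Anxa5 was the highest member at 109 ± 10.6 CPM per kb (SD, n = 3), and its libraries did not overlap those of the next gene. S100a4 followed at 33.1 ± 15.2, S100a11 at 30.5 ± 5.74, Anxa2 at 22.0 ± 4.79, Anxa4 at 15.5 ± 1.81 and Anxa1 at 12.3 ± 4.72 CPM per kb. S100a6 was at 9.39 ± 5.41, S100a10 at 6.20 ± 1.53, S100a8 at 3.93 ± 5.61 and S100a9 at 2.33 ± 3.75 CPM per kb. From S100a4 downwards the ranges of neighbours in this order overlapped. After laser Anxa5 stayed the highest at 147 ± 28.0 CPM per kb (SD, n = 4), and S100a11, Anxa2 and S100a4 followed at 39.1 ± 31.5, 37.8 ± 9.46 and 29.7 ± 29.0 CPM per kb. With the longest transcript as the length in place of merged exons, the means over 7 libraries rose from 31.0 to 50.8 CPM per kb for Anxa2, from 10.2 to 17.7 for S100a6 and from 9.45 to 16.7 for S100a10. Anxa2 then lay above S100a4 (36.5) and S100a11 (35.4), where with merged exons it lay at or below them (31.1 and 35.4).

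No other gene of either family passed in the main limma fit. Of 8 further annexin genes 5 were tested, and limma called none, with Anxa6 the only one at an unadjusted p under 0.05. DESeq2 called Anxa6, and edgeR and voom called none. By limma, Anxa6 was also called with median-of-ratios scaling (adjusted p = 0.0266) and without unlasered library 3 (0.0462). In all, 3 of 18 alternatives called it. Anxa6, a large annexin of endosomes and the plasma membrane, had 94.7, 78.8 and 99.0 CPM in unlasered and 133, 127, 130 and 113 CPM in lasered libraries. Its groups did not overlap, and it differed by 0.47 (SE 0.13, limma, adjusted p = 0.0628), and its 4 lasered libraries lay close together, as those of Anxa4 did. Anxa3, the annexin with the highest CPM in these cells, had 943, 804 and 634 CPM against 775, 781, 859 and 743 CPM, a log2 difference of 0.01 (SE 0.14, limma, adjusted p = 0.978). Of 11 further S100 genes 9 were listed and 4 were tested, and none passed by limma, edgeR, voom or DESeq2 or at an unadjusted p under 0.05. S100a1 had 40.4, 36.4 and 27.2 CPM against 47.7, 47.0, 41.2 and 35.4 CPM (log2 difference 0.31, SE 0.18, limma, adjusted p = 0.354). S100a13 had 29.9, 25.9 and 21.3 CPM against 25.4, 28.2, 24.4 and 25.5 CPM (0.02, SE 0.16, adjusted p = 0.957). Both lacked the wide spread of S100a4 and S100a6, with SDs within groups of 0.24 and 0.16. The pseudogene entry S100a11-ps was read at no more than 0.049 CPM.

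The S100 members lie in 2 groups on chromosome 3. In GRCm38, 10 listed S100a genes from S100a1 to S100a9 span 185 kb (90511034 to 90695721), and S100a11 and S100a10 lie apart from them and 28792 bases from each other. Expression in these cells was patchy along the stretch. S100a5, which lies between S100a4 and S100a6 with gaps of 2477 and 1101 bases, was read at 0 to 0.049 CPM, and S100a3 on the other side of S100a4 at 0.0227 to 0.538 CPM. S100a7a, between S100a6 and S100a8, did not exceed 0.147 CPM. S100a1 and S100a13, at the far end, were read at 27.2 to 47.7 and 21.3 to 29.9 CPM.

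Receptors and partners were read from lists chosen with earlier results known. Among 9 receptors of annexins and S100 proteins, 8 were tested and the main limma fit called none. Fpr1 was higher and Bsg lower at an unadjusted p under 0.05, beside 3963 of all 17496 genes tested. DESeq2 called Fpr1, and edgeR and voom called none. Fpr1, a formyl peptide receptor that Anxa1 peptides engage and that is named after its values were seen, had 45.0, 29.9 and 48.6 CPM against 102, 86.8, 119.6 and 43.6 CPM. The lasered libraries 1, 2 and 3 were above the unlasered range and library 4 was within it (log2 difference 1.02, SE 0.33, limma, adjusted p = 0.101). The other formyl peptide receptor genes of the list did not follow. Fpr2 differed by 0.27 (SE 0.50, limma, adjusted p = 0.799) and Fpr3 by -0.01 (SE 0.16, limma, adjusted p = 0.975). Bsg, or CD147, a binding partner of S100a9, had 552, 585 and 401 CPM against 362, 385, 402 and 388 CPM (log2 difference -0.40, SE 0.14, adjusted p = 0.137). Leaving out 1 library gave -0.56 to -0.29, and 1 of 18 alternatives called Bsg lower (limma, adjusted p = 0.0222). Cd33, a sialic acid receptor reported to bind S100a9, differed by -0.06 (SE 0.15, adjusted p = 0.852).

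For plasminogen activation, the process in which Anxa2 and S100a10 act, 5 of 9 genes were tested, 1 fell and none rose by limma. Serpine2, or protease nexin, an inhibitor of plasminogen activators and thrombin, had 184, 129.5 and 139 CPM in unlasered and 45.7, 62.8, 63.0 and 87.0 CPM in lasered libraries. Its groups did not overlap, and it fell by 1.23 on the log2 scale (SE 0.22, limma, adjusted p = 0.0160). voom, edgeR and DESeq2 also called it. Of the fits that left out libraries, the call was lost without lasered library 2 (limma, adjusted p = 0.0553) and without lasered libraries 1 and 2 together (0.122). Plasminogen itself (Plg) and tissue plasminogen activator (Plat) did not reach the level needed for the test, with at most 0.441 and 0.805 CPM, and are named after their values were seen.

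The list of membrane repair genes and annexin-S100 scaffolds had 11 genes, of which 9 were tested. None passed by the main limma fit, edgeR or voom. DESeq2 called Capns1, which was also at an unadjusted p under 0.05 by limma. Of 18 alternatives, 2 called Capns1, DESeq2 among them. Capns1, the small subunit of the calpain proteases, had 59.0, 60.0 and 60.9 CPM in unlasered and 84.0, 73.4, 95.6 and 86.0 CPM in lasered libraries. The groups did not overlap (log2 difference 0.49, SE 0.13, limma, adjusted p = 0.0564). Pdcd6ip, the ESCRT-associated protein ALIX, had the highest level of the list and differed by 0.10 (SE 0.20, adjusted p = 0.814). Ahnak, a large scaffold that binds the Anxa2-S100a10 complex, is named after its values were seen, because its spread resembled that of the S100 genes. It had 6.46, 0.847 and 9.02 CPM in unlasered and 19.5, 17.5, 2.29 and 0.539 CPM in lasered libraries (log2 difference 0.36, SE 0.95, adjusted p = 0.863).

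All 7 cytosolic partners of S100 proteins were tested. None passed by the main limma fit, edgeR, voom or DESeq2, or at an unadjusted p under 0.05. Myh9, the heavy chain of non-muscle myosin that S100a4 binds, had 128, 104 and 293 CPM against 265, 182, 177 and 231 CPM. Unlasered library 3 was the highest of all (log2 difference 0.42, SE 0.32, limma, adjusted p = 0.490). Leaving out 1 library gave differences of 0.12 to 0.86, and 1 of 17 alternatives called Myh9 (limma, adjusted p = 0.0378). Tubb5, a tubulin, differed by -0.05 (SE 0.15, adjusted p = 0.889). Lgals3, or galectin-3, is also named after its values were seen. It had 32.3, 10.98 and 49.4 CPM against 53.2, 111, 22.0 and 8.08 CPM, the order of S100a4 and S100a6 among the lasered libraries.

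Among 8 genes of phosphatidylserine binding and clearance, the process in which Anxa5 is used as a probe, 7 were tested, and 1 rose and none fell by limma. Axl, a receptor tyrosine kinase that recognises phosphatidylserine through Gas6, had 34.1, 41.4 and 55.0 CPM in unlasered and 240.2, 260.4, 104 and 68.0 CPM in lasered libraries. All lasered libraries were above all unlasered libraries, with libraries 1 and 2 far above 3 and 4 (log2 difference 1.74, SE 0.44, limma, adjusted p = 0.0478). edgeR and DESeq2 also called Axl, and voom did not (adjusted p = 0.0792). Leaving out unlasered library 1, 2 or 3 gave adjusted p-values of 0.132, 0.109 and 0.0613, leaving out lasered library 1, 2 or 3 gave 0.112, 0.112 and 0.0785, and only without lasered library 4 was the call kept (0.0216). Without lasered libraries 1 and 2 the difference was 0.96 (adjusted p = 0.180).

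The profile over the 7 libraries was compared between genes by the Euclidean distance of log2(CPM + 1) values centred on each gene's mean, among 10288 genes with a mean of at least 10 CPM. For Anxa2, the annexin with the largest difference, the nearest genes were Fam217b (distance 0.13), Arid5b (0.34) and Cfap43 (0.35). Arid5b, a transcriptional coregulator, had 69.0, 45.8 and 92.6 CPM against 130.2, 138, 91.3 and 80.1 CPM. Anxa4 was the nearest member to Anxa2 and ranked 179. For S100a4, the S100 member with the largest difference in value, the nearest were Dpep2 (0.49), a membrane dipeptidase, Vav3 (0.55), a guanine nucleotide exchange factor, and S100a6 (0.65). Dpep2 had 19.6, 6.04 and 21.2 CPM against 16.2, 29.2, 5.03 and 2.26 CPM, so it shared the high lasered library 2 and the low lasered library 4. S100a11 ranked 32, S100a10 ranked 62 and Anxa1 ranked 105 for S100a4, whereas Anxa2 ranked 1547 and Anxa4 ranked 5341. These are descriptions over 7 libraries, in which all genes share the depth and cell composition of each library, and these differed between libraries.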

How the data were processed

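RNA was read from sorted rMG of 7 libraries, with the SMARTer Ultra Low v4 and Nextera XT kits, which do not mark strand. Adapters and duplicate reads were removed with cutadapt and FastUniq, reads were mapped with Bowtie2 to the mouse genome (GRCm38 in the submitters' processing notes), counted with HTSeq on annotation version 90 and normalised by the authors. The deposited values are headed TPM but are CPM: 100% of them are whole multiples, within 0.05 read, of what 1 read is worth in their library, whatever the gene's length, so whole reads were recovered. Of 40743 genes, 4492 include reads listed jointly with another gene, and 99.76% were matched to GENCODE M21, whose GRCm38 coordinates are given.

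Groups came from the sample titles. Log2(CPM + 1) of the deposited CPM was fitted with limma 3.58.1 (R 4.3.3, statmod 1.5.0; mean-variance trend, robust empirical Bayes, two-sided) over the 17496 genes that reached 1 CPM in 3 or more libraries, with Benjamini-Hochberg adjustment over all of them and a threshold of 0.05; 3963 genes had an unadjusted p under 0.05. Fold changes on this scale understate those of low genes. Count models on recovered reads were alternatives (edgeR 4.0.16 called 662 genes higher and 604 lower; DESeq2 1.42.0; voom), as were a pseudocount of 0.1, no filter, a mean of at least 10 CPM, median-of-ratios scaling, thinning to the smallest library, leaving out jointly read genes, the replicate number as a block and each library left out. Sums of marker lists and Irf8 were compared by exact permutation tests. The fit was tested on simulated data. Tables and plots were made in Python 3.11.15 (numpy 2.4.6, pandas 2.3.3, matplotlib 3.10.9, scipy 1.17.1).

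The members and gene lists were chosen with earlier results of these data known. Named genes were all members, other annexin and S100 genes, in each list the genes past the test or otherwise the 2 with the highest mean, the 3 nearest profiles, and Irf8. Fpr1, Fpr2, Fpr3, Plg, Plat, Ahnak, Lgals3, S100a16, S100b, the S100 genes of the chromosome 3 stretch and single genes of the marker lists that did not pass the test were named after their values were seen. Libraries are separate pools of mice, and p-values measure the spread between these pools. The depth floor was 3 reads, or 0.0653 to 0.147 CPM per library. Protein sequences and the pairwise identity between members were not analysed here.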

Additional observations from a re-analysis of the deposited data

Results flagged for a closer look

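Irf8, the targeted gene, had 1 library far from the others of its group. Lasered library 4 had 582 CPM, while the other 3 lasered libraries lay between 463 and 475 CPM. The gap between library 4 and the nearest library was 0.897 of the group's range, above Dixon's 95% critical value for 4 samples. The level was tested in this way for 40 genes and lists, and 1 was flagged; chance alone flags about 1 in 20 groups. Lasered library 4 was also the lowest library for S100a4, S100a6 and S100a10. Over both groups Irf8 was at 508.7 ± 20.6 CPM (SD, n = 3) without and 496 ± 57.6 CPM (SD, n = 4) with laser (exact permutation test, two-sided p = 0.743).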

How the results depend on the processing

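Anxa4 kept its direction in 18 of 18 alternatives (log2 difference 0.45 to 0.64) and was called in 9, with adjusted p-values from 0.0026 to 0.349. Anxa2 (0.48 to 0.89) and Anxa5 (0.31 to 0.54) kept theirs in 18 of 18 and were called in 2 and 0. Members called higher numbered 0 with no filter, 2 with median-of-ratios scaling, 2 with DESeq2, 0 without lasered libraries 1 and 2 and 0 to 1 when a library was left out. Median-of-ratios scaling moved the median log2 difference over all tested genes from -0.014 to 0.059. All genes called higher and lower numbered 212 and 173 with no filter (more genes tested), 1177 and 1141 with DESeq2, 10 and 14 without lasered libraries 1 and 2 (fewer samples), and 150 to 815 and 114 to 433 when a library was left out; with a mean of at least 10 CPM, 235 were lower. Members lying wholly lower numbered 4 without lasered libraries 1 and 2.

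The replicate numbers 1 to 3, which both groups carry, were checked for pairing. Deviations of libraries with the same number correlated at -0.183, -0.126 and -0.0234, and 0 of 6 libraries correlated best with the library of their own number. Whether the numbers pair samples is not stated. These correlations cannot decide it, because cell composition also differed between libraries. With the replicate number as a block, in which lasered library 4 has no partner and adds nothing to the difference, 0 members and 2 genes were called higher and 1 gene lower, and Anxa4 was at 0.60 (adjusted p = 0.124), Serpine2 at -1.38 (0.0914) and Axl at 2.11 (0.0979). Serpine2 was called in 15 and Axl in 7 of 18 alternatives.

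Signs changed as follows, on the log2 scale, and the cause was not tested. With the block S100a4 was at 0.016, S100a6 at 0.31, S100a8 at 0.24 and Tubb5 at 0.00027. edgeR and DESeq2 gave 0.18 and 0.19 for S100a6, -0.0021 and -0.0028 for Anxa3 and 0.053 and 0.051 for Anxa9. S100a8 was at 0.070 with a pseudocount of 0.1 and at 0.58 with voom. With median-of-ratios scaling Anxa9 was at 0.059, Cd33 at 0.021 and Tubb5 at 0.034, and S100a13 was at -0.054 after thinning. Without lasered libraries 1 and 2, Anxa1 was at -0.058, S100a10 at -0.39, S100a11 at -0.82, Anxa9 at 0.13, S100a13 at -0.029 and S100b at -0.28. Leaving out 1 library gave -0.031 to 0.54 for Anxa1, -1.21 to 0.016 for S100a4, -0.91 to 0.31 for S100a6, -0.69 to 0.24 for S100a8, -0.41 to 0.36 for S100a11, -0.14 to 0.14 for Anxa3, -0.15 to 0.13 for Anxa9, -0.10 to 0.13 for S100a13, -0.64 to 0.11 for S100a16, -0.31 to 0.28 for S100b, -0.20 to 0.12 for Cd33, -0.038 to 0.32 for Pdcd6ip and -0.14 to 0.12 for Tubb5.

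With median-of-ratios scaling the lasered minus unlasered difference turned to 236 CPM for the microglia sum, 0.797 CPM for the retinal pigment epithelium sum and 18.1 CPM for Irf8. Leaving out 1 library, it ranged from -3.11 to 0.0587 CPM for retinal pigment epithelium, -22.1 to 0.834 CPM for endothelial cells, -1.29 to 0.0492 CPM for pericytes and fibroblasts and -48.5 to 58.8 CPM for immediate early genes. With the longest transcript as length, the means over 7 libraries were 24.2 CPM per kb for Anxa1, 50.8 for Anxa2 and 34.7 for Anxa4. Depth limited S100a9 and S100a8, which had at most 13 reads in 4 and 3 libraries.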
